A study of Mus musculus with 8 samples.

Results

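The mir-23a/27a/24-2 and mir-23b/27b/24-1 clusters were measured in small RNA libraries of myoblasts, the dividing cells that fuse to form muscle fibres. Their members were taken by precursor name, mmu-mir-23a, mmu-mir-27a and mmu-mir-24-2 for the first and mmu-mir-23b, mmu-mir-27b and mmu-mir-24-1 for the second, and gave 6 of the 1181 precursors in the deposited table. There were 4 libraries of old and 4 of young C57BL/6J mice, which the labels number old 1 to old 4 and young 1 to young 4. The labels do not say whether each library came from 1 mouse. The sources used here state neither the ages in months nor how the myoblasts were isolated or grown. All 6 members passed the filter for comparison, which asked for 10 or more on the linear scale in 4 or more libraries, as did 359 precursors in all. Values are log2 abundances per length of precursor, so that a difference of 1 is a doubling. Between precursors such values depend on hairpin length as well as on reads, so the order of the members is given both per length and in reads.

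Each cluster is copied as 1 long primary transcript, from which the hairpins of a miR-23, a miR-27 and a miR-24 are cut, and each hairpin gives a mature miRNA of the Argonaute complex that represses messenger RNAs through its seed, bases 2 to 8. The clusters are vertebrate paralogs known from blood vessels, muscle and fat. In mouse muscle, miR-27 represses Pax3, a transcription factor of muscle progenitors, and also the growth inhibitor myostatin. miR-24 promotes differentiation of mouse myoblasts and is repressed by TGF-beta signalling, and miR-23a represses the ubiquitin ligases of muscle atrophy.

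The mature sequences are shown first because they decide which members can be told apart by short reads. They are from the RefSeq table of build GRCm38.p6, which is mm10, with the seed in capitals, and all 6 members had a hairpin there:
mmu-miR-27a-3p: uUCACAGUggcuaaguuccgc
mmu-miR-27b-3p: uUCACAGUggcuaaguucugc
mmu-miR-23a-3p: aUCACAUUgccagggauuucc
mmu-miR-24-3p: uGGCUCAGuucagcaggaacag
mmu-miR-24-2-5p: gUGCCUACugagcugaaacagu
mmu-miR-24-1-5p: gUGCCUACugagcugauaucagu

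miR-27a-3p and miR-27b-3p share the seed UCACAGU, which no other mature name in the table holds, and differ by 1 substitution in 21 bases, C19U from miR-27a-3p to miR-27b-3p, counted from the 5′ end. miR-24-3p is the same 22 bases from both clusters, and only its 5p partners differ between mir-24-2 and mir-24-1. Its seed GGCUCAG is shared by 4 other mature names, miR-5124b, miR-6369, miR-6410 and miR-6413, whose precursors were at 0 in all 8 libraries. The RefSeq table had no entry for miR-23b-3p, so the mature miR-23 sequences are not compared here.

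The mir-23a/27a/24-2 cluster spans 404 bases on the plus strand of chromosome 8 (84208518 to 84208921, mm10), with 79 bases between mir-23a and mir-27a and 56 between mir-27a and mir-24-2. Apart from the mir-3074-2 hairpin on the other strand, GENCODE annotates no gene over it except Gm26532, a long non-coding RNA that overlaps the last 2 bases of mir-24-2. The mir-23b/27b/24-1 cluster spans 792 bases on the plus strand of chromosome 13 (63300484 to 63301275), with gaps of 154 and 423 bases. It lies inside 2010111I01Rik, an aminopeptidase gene on the same strand, mir-23b in an intron and mir-27b and mir-24-1 in stretches that at least 1 transcript has as exon, and it is antisense to an intron of Fancc.

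The copies of mir-24 could not be told apart in the deposited values. mir-24-1 and mir-24-2 lie on different chromosomes, and each has a second precursor, mir-3074-1 or mir-3074-2, annotated on the opposite strand of the same locus. The hairpins are shown with miR-24-3p in capitals in mir-24-1 and mir-24-2, and with its reverse complement in capitals in mir-3074-1:
mir-24-1: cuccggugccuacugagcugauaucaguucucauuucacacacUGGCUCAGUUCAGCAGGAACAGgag
mir-24-2: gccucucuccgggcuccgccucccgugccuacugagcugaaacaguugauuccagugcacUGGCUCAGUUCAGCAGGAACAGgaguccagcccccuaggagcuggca
mir-3074-1: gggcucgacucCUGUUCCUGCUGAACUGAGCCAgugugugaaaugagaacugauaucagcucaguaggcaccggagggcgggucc

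mir-3074-1 minus mir-24-1 was -0.33 or -0.32 throughout, while their lengths of 85 and 68 bases give -0.32 on the log2 scale. mir-3074-2 minus mir-24-2 was 0.37 or 0.38, against 0.37 for lengths of 83 and 107 bases. Both strands of a locus were thus listed with the same reads, and the level of a miR-3074 cannot be read from this file. Between the 2 mir-24 copies the difference was -0.63 to -0.56 (mir-24-2 minus mir-24-1), against -0.65 from the lengths, so that mir-24-2 held 1.02 to 1.07 times the reads of mir-24-1. Reads listed under both copies and reads divided evenly between them would give the same values and cannot be told apart. The values of mir-24-1 and mir-24-2 below are therefore 1 measurement of miR-24, and the share of each cluster in it is unknown.

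The other families did not follow their lengths in this way. The longest run that the mir-23 hairpins share is 20 bases, shown in capitals:
mir-23a: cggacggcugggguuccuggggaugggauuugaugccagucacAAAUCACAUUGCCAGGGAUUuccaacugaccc
mir-23b: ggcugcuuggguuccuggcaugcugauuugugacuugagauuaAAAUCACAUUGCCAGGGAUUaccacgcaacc

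mir-23a minus mir-23b ran from -0.45 to 0.34 over the libraries, with a length ratio of -0.02. mir-27a and mir-27b also share a run of 20 bases, and mir-27a minus mir-27b ran from -5.33 to -4.09, with a length ratio of -0.25. The sources used here do not say how reads too short to tell the members of a pair apart were placed.

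**Figure D1:**
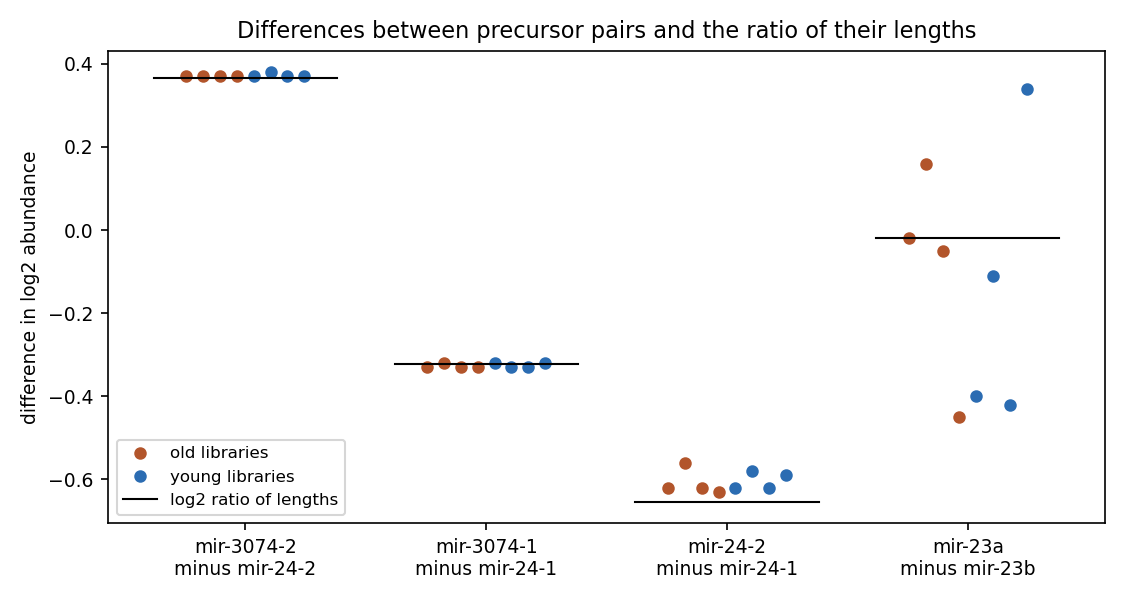
Difference in log2 abundance between pairs of precursors (y axis) in each of the 8 libraries (points, old and young), with the log2 ratio of the precursor lengths as a line. The mir-3074 pairs sit on the line and mir-24-2 minus mir-24-1 lies just above it, between -0.63 and -0.56, while mir-23a minus mir-23b scatters from -0.45 to 0.34.

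mir-27b was the most abundant member in every library. Its log2 level was 16.19 ± 0.40 over all libraries (SD, n = 8), and it ranked 12th to 19th of the 359 precursors per length. It was followed by mir-24-1 at 13.83 ± 0.48, mir-24-2 at 13.23 ± 0.48, mir-23b at 13.06 ± 0.59, mir-23a at 12.94 ± 0.56 and mir-27a at 11.49 ± 0.50 (n = 8 each). Both ends of this order are thus miR-27 precursors, whose mature forms share a seed. Within libraries mir-27b exceeded mir-24-1 by 2.35 ± 0.45 per length, and mir-23a exceeded mir-27a by 1.46 ± 0.36, each in 8 of 8 libraries (two-sided exact sign-flip test, p = 0.00781, the smallest that 8 libraries can give; adjusted p = 0.0156 over 4 neighbouring pairs). The pairs are neighbours in the order of the means over these same libraries. They were thus chosen from the tested values, and the p-values here are no independent support for the order. The mir-24 copies stand apart mainly by their lengths, and their order was not tested. The place of miR-24 against miR-23 depended on the scale. Per length, mir-24-2 exceeded mir-23b by 0.17 ± 0.45 in 5 of 8 libraries, which did not pass the test (exact sign-flip p = 0.336, adjusted p = 0.336). In reads, undivided by the lengths of 107 and 74 bases, it held 1.62 times as many as mir-23b (0.941 to 2.45) and more in 7 of 8 libraries (exact sign-flip p = 0.0156, adjusted p = 0.0208 over the same 4 pairs, a scale added after seeing the data). It is not known whether reads were listed under both mir-24 copies or divided between them. The level of miR-24 against miR-23 therefore stays uncertain on either scale. mir-23b exceeded mir-23a by 0.12 ± 0.29 per length in 6 of 8, which passed on neither scale (exact sign-flip p = 0.273, adjusted p = 0.336 per length; p = 0.367, adjusted p = 0.367 in reads).

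The hairpins of 1 primary transcript were therefore listed at widely different levels, per length and in reads. Whether unlike sequences were read with equal efficiency was not tested. In the chromosome 13 cluster mir-27b was 5.78 to 16.9 times as abundant per length as mir-23b, with a geometric mean of 8.73 (8.61 in reads). In the chromosome 8 cluster the order was the other way round, with mir-23a at 2.74 times the level of mir-27a per length (2.14 to 4.35), or 2.37 times in reads. mir-27b was 26.0 times as abundant as mir-27a per length (17.0 to 40.2), or 21.8 times in reads. mir-23b was 1.09 times as abundant as mir-23a per length (0.79 to 1.37), or 1.07 times in reads. The precursors of the 2 clusters were thus listed at similar levels for miR-23 and at far apart levels for miR-27. The part of reads that match both precursors of a family in these levels was not tested. Read numbers did not limit these values: recovered from the deposited steps, they ran from 5000 reads of mir-27a in young 1 to 244500 of mir-27b in young 2.

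No member differed between old and young myoblasts by more than the spread between libraries. All 6 had a higher mean in old mice, by 0.02 to 0.26 on the log2 scale (median 0.19). Of all 359 precursors, 46.0% had a higher mean in old, and the median over all was -0.05. The mir-24 copies are the same measurement but are counted separately in the 6 and in their median. In limma 0 of 6 passed an adjusted p of 0.05 (0.0% over all 359), and 0 of 6 an unadjusted p of 0.05 (4 of 359, 1.11%). In 0 of 6 were the groups free of overlap (3 of 359, 0.836%). Without old 4 only the mir-24 precursors, 2 of the 6, were higher in old mice, and without young 3 it was 3 of the 6. The 95% intervals of the differences ran, at their widest ends, from 0.546-fold for mir-23b to 2.17-fold for mir-27a. In simulated sets with the spread of these 359 precursors, the test recovered 12.2% of 2-fold and 56.8% of 4-fold changes. These shares are over all 359, whose median SE (standard error) was 0.50, against 0.37 for the members. The sets drew each precursor separately, without shifts of whole libraries.

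mir-27b, the precursor of the abundant miR-27, was at 15.96, 15.75, 16.13 and 16.94 in old 1 to old 4 and at 15.97, 16.67, 16.01 and 16.07 in young 1 to young 4. The groups overlapped almost fully, with old 4 highest and old 2 lowest of all. The means were 16.20 ± 0.52 in old and 16.18 ± 0.33 in young mice (SD, n = 4 each), or 0.02 higher in old mice (standard error, SE, 0.33; limma, p = 0.965, or 0.995 adjusted over the 359; exact permutation p = 0.943, two-sided). mir-27a measured 11.21, 11.17, 11.66 and 12.42 in old mice and 10.92, 11.34, 11.19 and 11.98 in young mice. The library with number 4 was the highest in each group and young 1 the lowest of all. The difference was 0.26 (SE 0.38; limma, adjusted p = 0.995), between means of 11.62 ± 0.58 in old and 11.36 ± 0.45 in young mice.

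mir-24-1 measured 13.77, 13.54, 13.92 and 14.60 in old mice, against 13.44, 13.58, 13.31 and 14.51 in young mice. Here 3 of 4 old libraries lay above 3 of 4 young ones, but young 4 stood near the top and old 2 among the young. The difference was 0.25 (SE 0.37; 13.96 ± 0.46 in old and 13.71 ± 0.54 in young mice, n = 4 each; limma, adjusted p = 0.995). mir-24-2, which repeats this measurement, was at 13.15, 12.98, 13.30 and 13.97 in old mice and at 12.82, 13.00, 12.69 and 13.92 in young mice, a difference of 0.24 (SE 0.37).

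The miR-23 precursors had the widest spread of the 6. mir-23a measured 12.37, 12.88, 13.06 and 13.74 in old mice and 13.04, 12.48, 12.29 and 13.68 in young mice. mir-23b was at 12.39, 12.72, 13.11 and 14.19 in old mice and at 13.44, 12.59, 12.71 and 13.34 in young mice. The groups overlapped for both, and old 4 was the highest library for each. The differences were 0.14 for mir-23a, with an SE of 0.41, and 0.08 for mir-23b, with an SE of 0.43 (limma, adjusted p = 0.995 for each). The sign of mir-23b turned with quantile normalization (-0.0095) and with array weights (-0.038), and that of mir-27b with array weights (-0.12).

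**Figure D2:**
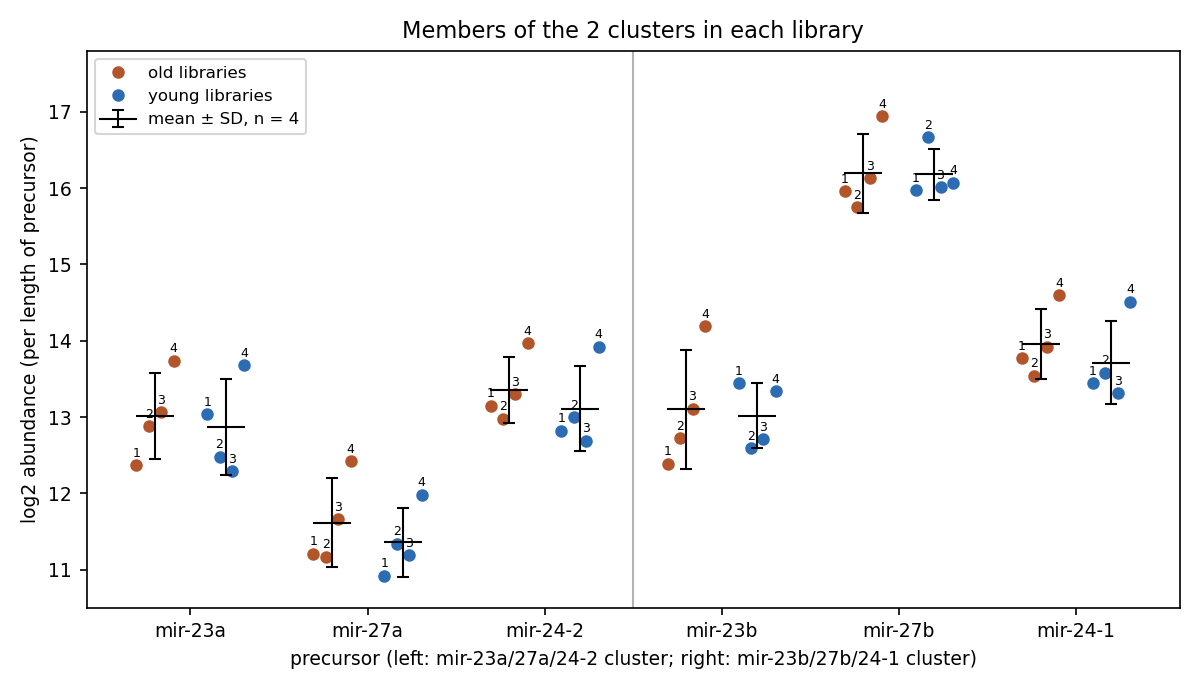
Log2 abundance per length of precursor (y axis) of the 6 members in the old and young libraries (points, numbered by library), with the mean and SD of each group (n = 4). mir-27b lies between 15.75 and 16.94, above all other members, mir-27a between 10.92 and 12.42 below them, and old and young points overlap for each member.

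**Figure D3:**
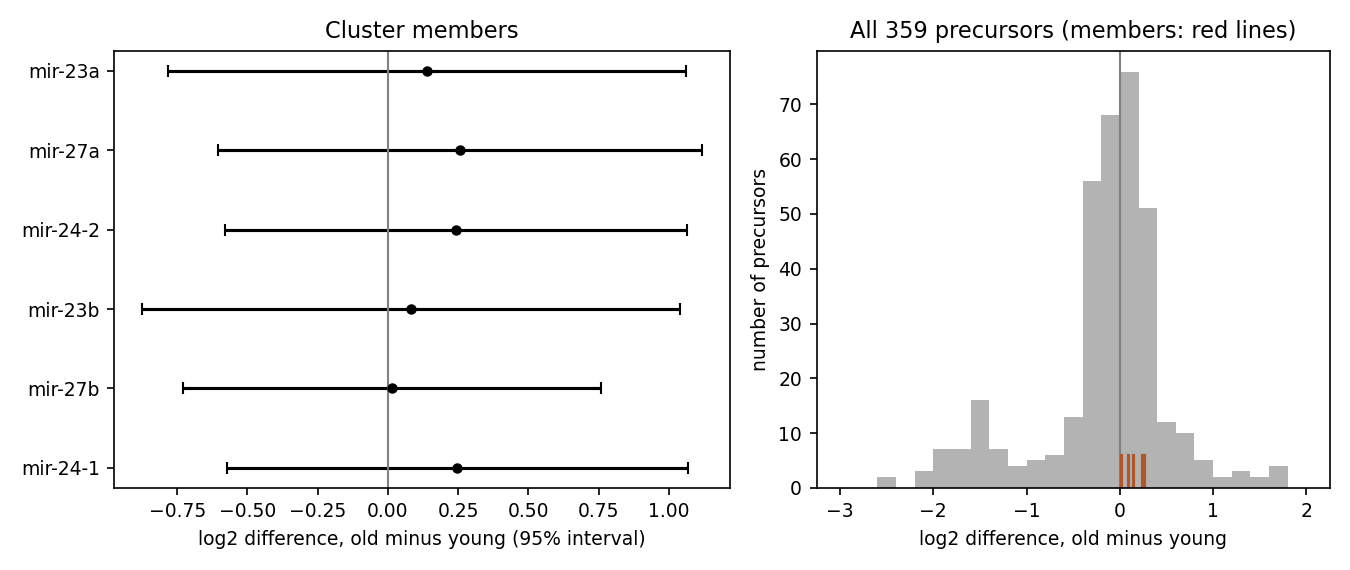
Left, log2 difference of old minus young for each member with its 95% interval, all of which include 0. Right, the same difference over all 359 precursors (grey bars), with the 6 members as red lines between 0.02 and 0.26.

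Old 4 and young 4, in which most members were highest, were also the libraries with higher values in general. The deviation of each precursor from its mean over libraries had a median of 0.37 in old 4 and 0.58 in young 4, and between -0.33 and 0.09 in the other 6 libraries. The mir-486 locus, listed under mir-486 and mir-3107, took 54.0% of all linear abundance in old 4 and 32.4% in young 4, against 57.8% to 69.1% in the other old and 48.4% to 72.9% in the other young libraries. These shares add the values of both names, and whether both list the same reads was not tested. The part of these library-wide shifts in the member values was not tested. Ratios of 2 members within a library do not depend on a shift that is the same for all precursors, but the members did not all share it. mir-27b in young 4 was at 16.07 as deposited, beside 15.97 in young 1 and 16.01 in young 3, and at 15.49 after rescaling. Ratios with mir-27b are therefore not free of these shifts. After the libraries were rescaled to the same median, the SD over 8 libraries was 0.28 for mir-27a (0.50 as deposited), 0.27 for mir-24-1 (0.48) and 0.37 for mir-27b (0.40).

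Within libraries, no ratio between members passed its test for a difference with age when all 8 were used. Of 7 ratios set out, 6 were tested, since mir-24-2 over mir-24-1 is fixed by shared reads. mir-27a over mir-27b, on the log2 scale, was -4.75, -4.58, -4.47 and -4.52 in old 1 to old 4, against -5.05, -5.33, -4.82 and -4.09 in young 1 to young 4. The old libraries lay close together, and the young ones fell on both sides of them, with young 4 alone above. The means were -4.58 ± 0.12 in old and -4.82 ± 0.53 in young mice, a difference of 0.24 (n = 4 each, two-sided exact permutation p = 0.400, adjusted p = 0.943 over 6 ratios).

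mir-24-1 over mir-27b behaved alike. It was -2.19, -2.21, -2.21 and -2.34 in old mice and -2.53, -3.09, -2.70 and -1.56 in young mice, so that again 3 young libraries lay below all old ones and young 4 above them. The means were -2.24 ± 0.07 in old and -2.47 ± 0.65 in young mice, a difference of 0.23 (n = 4 each, exact permutation p = 0.486, adjusted p = 0.943). Both results turned on young 4. Without it the difference was 0.49 for mir-27a over mir-27b and 0.54 for mir-24-1 over mir-27b, with no overlap between 4 old and 3 young libraries (exact permutation p = 0.0286 for each, the smallest that 4 against 3 can give, and adjusted p = 0.0858 over 6 ratios). Without young 2 the differences were 0.073 and 0.026 in the same order. Without both old 4 and young 4 they were 0.47 and 0.57 (exact permutation p = 0.1 for each, the smallest that 3 against 3 can give). These ratios share mir-27b and are not separate results.

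The other 4 ratios overlapped between the groups. mir-23a over mir-23b averaged -0.09 ± 0.26 in old and -0.15 ± 0.35 in young mice (exact permutation p = 0.800, n = 4 each). mir-23b over mir-27b averaged -3.09 ± 0.34 in old and -3.16 ± 0.69 in young mice (exact permutation p = 0.886, n = 4 each), and its lowest value was -4.08 in young 2, the young library with the most mir-27b. mir-23a over mir-27a averaged 1.40 ± 0.23 in old and 1.52 ± 0.49 in young mice (exact permutation p = 0.743, n = 4 each). mir-24-2 over mir-27a averaged 1.74 ± 0.17 in old and 1.75 ± 0.21 in young mice (exact permutation p = 0.943, n = 4 each). The adjusted p was 0.943 for all 4. A p that misses the threshold does not show that these balances are alike with age.

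**Figure D4:**
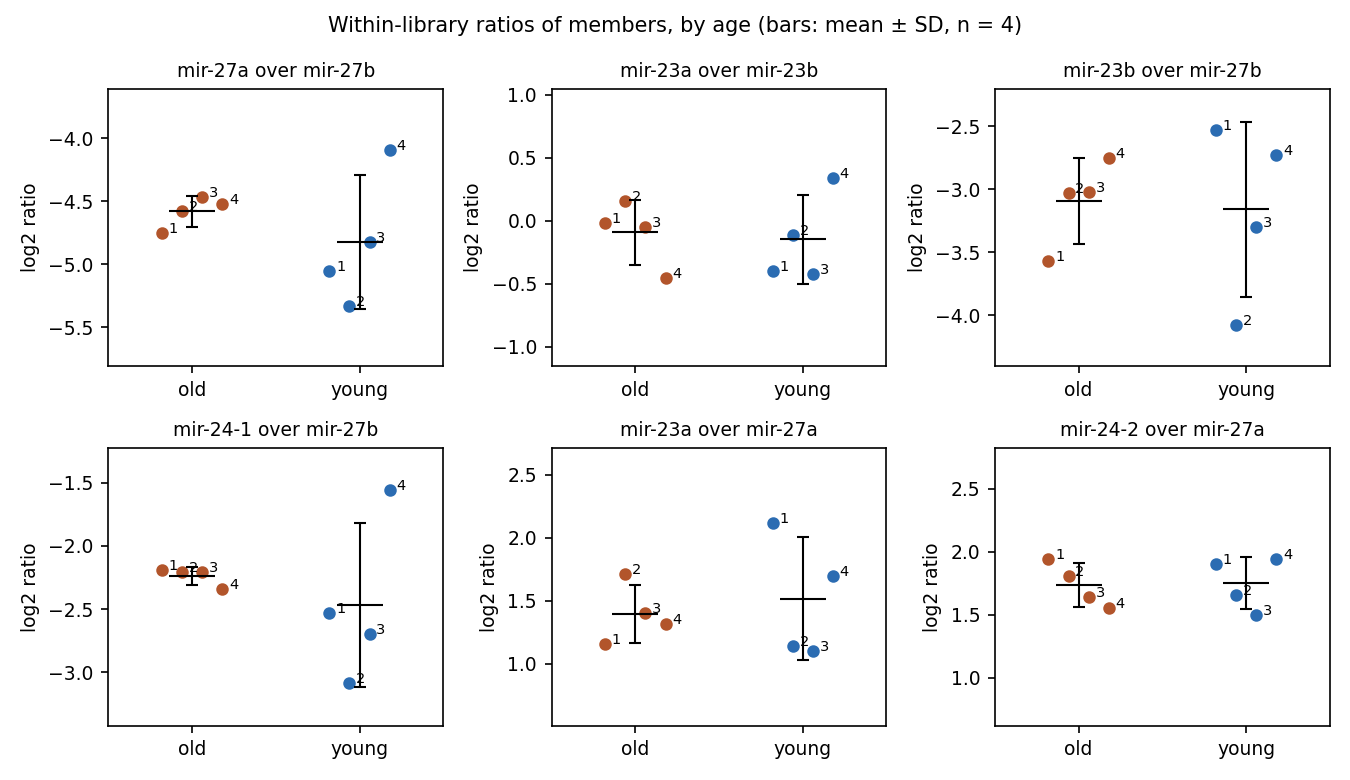
Log2 ratio of 2 members within a library (y axis, the same height of scale in all panels) in old and young libraries, numbered by library, with mean and SD (n = 4). In mir-27a over mir-27b and mir-24-1 over mir-27b, young 1, young 2 and young 3 lie below the old libraries and young 4 above them.

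How closely the members ran together was measured by the SD over the 8 libraries of the log2 ratio of 2 precursors, given as a description with no test. Pairs with a mir-24 cannot tell the clusters apart, since the copies are 1 measurement. Of the pairs that can, those within a cluster had an SD of 0.36 for mir-23a with mir-27a and 0.51 for mir-23b with mir-27b. Those of different cluster and family had 0.42 for mir-27a with mir-23b and 0.57 for mir-23a with mir-27b. The 2 kinds of pair overlapped, and 2 of each are too few to set against each other. Over all pairs of the 80 precursors at least as abundant as mir-27a, the median was 0.57. All 15 member pairs lay at or under it, at 0.348% to 49.9% of those pairs. Apart from the mir-24 copies, the tightest pairs were mir-27a with mir-24-1 (0.17) and with mir-24-2 (0.18). mir-27b had an SD of 0.45 with mir-24-1, its own cluster neighbour, and of 0.51 with mir-23b. By this measure miR-24 followed mir-27a more closely than mir-27b, a difference that was not tested, and since the mir-24 copies share reads it cannot be assigned to a cluster. The pairs are not independent, since each member stands in 5 of them.

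**Figure D5:**
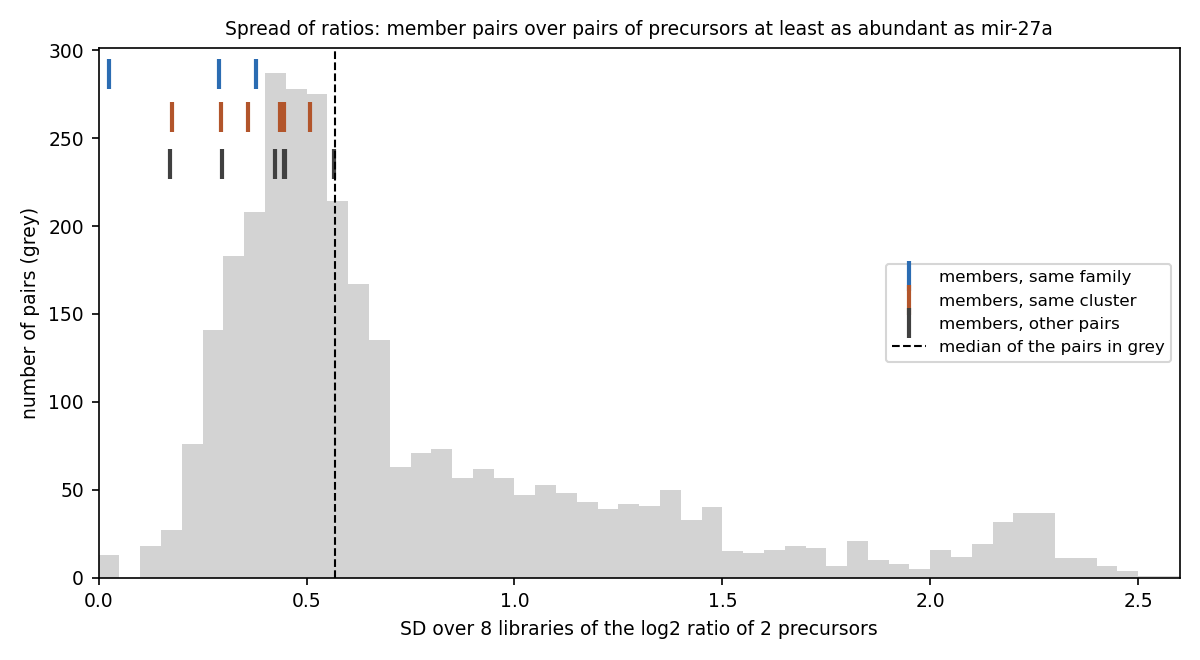
SD over the 8 libraries of the log2 ratio of 2 precursors (x axis). Grey bars count the pairs of the 80 precursors at least as abundant as mir-27a (y axis; dashed line, their median of 0.57), and ticks mark the 15 member pairs, from 0.03 for the mir-24 copies to 0.57.

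Outside the clusters, mir-30b, of the miR-30 family, kept the most constant ratio to the mean log2 value of each cluster among 351 other precursors, with an SD of 0.17 to the mir-23a/27a/24-2 mean and 0.20 to the mir-23b/27b/24-1 mean (n = 8). Next came mir-700 (0.21) and mir-199a-2 (0.21), a miRNA of fibroblasts and smooth muscle, for the chromosome 8 cluster. For the chromosome 13 cluster they were mir-219c (0.21) and let-7g (0.23). Both cluster means hold a mir-24 copy, and the copies are the same measurement, so the results for the clusters are not separate. A library shift that is the same for all precursors cancels in such a ratio, while one that differs between precursors does not. None of these 5 passed the test for age (limma, adjusted p = 0.995 for each). Their differences of old minus young ran from -0.06 for mir-219c to 0.26 for mir-199a-2 (SE 0.38), with mir-30b at 8.18 ± 0.57 in old and 8.24 ± 0.47 in young mice.

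Other miRNAs that act on Pax3, Pax7 or myostatin did not pass either. Of 6 listed precursors of miRNAs of Pax3, Pax7 and myostatin, 4 were compared and all 4 had a higher mean in old mice, where 46.0% of all 359 precursors did. Their median difference was 0.19, with 0 called in limma. Among them mir-486, which represses Pax7, measured 21.41 ± 0.28 in old and 21.28 ± 0.81 in young mice, and mir-206, which represses Pax3 and Pax7, measured 15.90 ± 0.17 in old and 15.72 ± 0.72 in young mice. mir-499, of the same list, measured 3.62 ± 1.37 in old and 3.42 ± 2.19 in young mice (SD, n = 4 each). mir-1a-1 and mir-1a-2, precursors of the miR-1 of mature fibres, stayed at or below 3.22 and 2.47 and were not compared.

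Of 9 precursors of miRNAs that promote myoblast differentiation, as miR-24 does, 6 had a higher and 3 a lower mean in old mice, the median was 0.04 and 0 were called. Of these, mir-181a-2 measured 18.07 ± 0.25 in old and 18.31 ± 0.51 in young mice, and mir-378a measured 16.99 ± 0.34 in old and 17.14 ± 0.13 in young mice. Of 8 precursors of miRNAs that hold differentiation back or promote proliferation, 2 had a higher and 6 a lower mean in old mice, the median was -0.04 and 0 were called. Both counts take copies separately, mir-181a and mir-26a in the first list and mir-133a and mir-125b in the second. Such copies may not be separate measurements: mir-181a-1 and mir-181a-2 both differed by -0.245. mir-125b-1, the most abundant of these, measured 16.86 ± 0.37 in old and 16.89 ± 0.72 in young mice. The members' median of 0.19 counts the mir-24 copies separately. It lay beside medians of -0.04 to 0.19 for these lists, which were not tested as lists. Over all 359 precursors, 46.0% had a higher mean in old mice.

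Of 9 muscle markers, 7 passed the filter for comparison, at very different levels. The highest were mir-486 and mir-206, the second between 15.76 and 16.14 in old and between 14.78 and 16.52 in young mice. The mir-133 precursors, mir-133a-1, mir-133a-2 and mir-133b, lay between 10.17 and 14.30 in old and between 10.85 and 14.92 in young mice. Those of heart and mature or slow fibres were low. mir-499 lay at 1.6 to 4.6 in old and 0.36 to 5.42 in young mice, mir-208b at 0 to 4.57 in old and 0 to 4.39 in young mice, and mir-1a-1 and mir-1a-2 as above. Of the 5 blood markers in the table, mir-142, mir-144 and mir-223 were at 0 in all libraries and mir-451a was at or below 0.89. mir-150 was low but passed the filter, at 3.05 to 4.47 in old and 1.04 to 4.32 in young mice. Its difference of 0.72 (SE 0.73; limma, adjusted p = 0.995) was larger than that of any member. In endothelium, where these clusters are also expressed, mir-126a is the usual marker, and it was at 3.32 to 4.34 in old and 2.96 to 5.11 in young mice, highest in young 4. The log2 of the summed level of mir-126a and mir-126b, the whole endothelial list, was 4.41 to 5.51 in old and 4.13 to 6.28 in young mice. Of 6 epithelial markers, mir-200a and mir-429 were at 0 throughout and 1 was compared, mir-205, at 5.94 ± 1.49 in old and 6.33 ± 0.75 in young mice. Fibroblast and smooth muscle markers were abundant. All 6 compared had a higher mean in old mice (median difference 0.29, 0 called), where 46.0% of all 359 precursors did. This count takes mir-199a-1 and mir-199a-2 separately, which differed by 0.29 and 0.26 and may not be separate measurements. mir-214 of this list is also counted among the promoters of differentiation above. The summed level of the 6 was 15.39 to 15.87 in old and 14.62 to 15.68 in young mice, and mir-143 measured 15.20 ± 0.31 in old and 14.79 ± 0.54 in young mice. Their part in the member values was not tested. In such bulk libraries, fewer cells of a type and less RNA per cell cannot be told apart.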

How the data were processed

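The authors deposited log2 values with 2 decimals, floored at 0, for 1181 miRNA precursors in 8 libraries, with the arms of a precursor not separated. The submitters' processing notes name BWA and mm10, with no version or role. The sources used here do not state trimming, counting or the placing of reads with several matches. Values times precursor length fell on whole multiples of a step (100% of low values, up to 12 reads, tolerance 0.1 of a read), which gave library sizes of 25.1 to 39.5 M reads, every young library above every old one. Reads recovered so are approximate and were used to describe depth only.

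limma 3.58.1 (R 4.3.3, eBayes with trend) was run on the log2 values as deposited for 359 precursors, with Benjamini-Hochberg adjustment over all of them. Ratios within a library were compared by two-sided exact permutation (70 arrangements, smallest p 0.0286). Levels were compared by exact sign-flip tests between neighbours in the order of the means over the same libraries. Where nothing says that the libraries came from separate cultures, p-values measure the spread between these libraries. The test was checked on 20 simulated sets with 60 changed precursors each. Python 3.11.15, numpy 2.4.6, pandas 2.3.3 and matplotlib 3.10.9 did the rest.

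The members and lists were chosen with earlier results of these data known. Beside the members, the text names mir-3074-1 and mir-3074-2, the 3 precursors with the most constant ratio to each cluster's mean, and up to 3 of the most abundant compared members of each of 8 lists; mir-1a-1, mir-1a-2, mir-133a-2, mir-133b, mir-208b, mir-499 as a marker, mir-451a and those at 0 were named after their values were seen. Alternatives were 2 pseudocounts (1 and 10), 2 filters (none, or 100 as the lowest mean), median-ratio and quantile scaling, no trend, array weights, the replicate block and leaving out each library. Leaving out both old 4 and young 4 and the order in reads not divided by length were added after seeing the data. No library was left out of the values given, unless said.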

Additional observations from a re-analysis of the deposited data

Results flagged for a closer look

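In 24 groups of 4 libraries, 6 members and 6 ratios in each age, 2 libraries stood apart from the other 3 of their group by more than Dixon's 95% limit, which chance passes in about 1 in 20 groups. mir-27b was at 16.67 in young 2, while the other young libraries lay at 15.97 to 16.07. The log2 ratio of mir-24-1 over mir-27b was -2.34 in old 4, while the other old libraries lay at -2.21 to -2.19. The second gap is small in size and passes because those 3 libraries are nearly equal.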

How the results depend on the processing

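Over 18 alternatives limma called 0 of the tested precursors, with 0 to 39 at an unadjusted p under 0.05 (39 with the replicate block, 36 without old 3, 27 without young 4 or with array weights, 19 without a filter and 0 with a mean of at least 100, against 4). mir-24-1 and mir-24-2 had a higher mean in old libraries throughout (0.033 to 0.51 and 0.036 to 0.51). Leaving out 1 library at a time, 2 to 6 of the 6 members were higher in old, and the differences ranged from -0.10 to 0.41 for mir-23a, -0.011 to 0.47 for mir-27a, -0.28 to 0.32 for mir-23b and -0.23 to 0.18 for mir-27b. With all libraries, mir-23b turned to -0.0095 with quantile normalization and -0.038 with array weights, and mir-27b to -0.12 with array weights. Without both old 4 and young 4, mir-23b was at -0.17, mir-27b at -0.27 and mir-24-2 over mir-27a at 0.11. The cause was not tested. Leaving out 1 library, the age difference of the ratios ranged from -0.033 to 0.22 (mir-23a over mir-23b), 0.073 to 0.49 (mir-27a over mir-27b), -0.26 to 0.084 (mir-23a over mir-27a), -0.098 to 0.048 (mir-24-2 over mir-27a), -0.24 to 0.28 (mir-23b over mir-27b) and 0.026 to 0.54 (mir-24-1 over mir-27b). Only without young 4 did any reach an unadjusted exact p under 0.05: 0.0286 for mir-27a over mir-27b and mir-24-1 over mir-27b. Quantile normalization moved the median difference over all precursors to 0.089, from -0.05, and the share higher in old to 59.6%, from 46.0%.

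The labels do not say whether the replicate numbers pair the libraries, and the values do not settle it. Same-numbered deviations correlated at -0.064, 0.43, 0.66 and 0.58, and 3 of 4 old and 3 of 4 young libraries correlated best with their own number. Since 1 pair fell short of 0.1, the numbers were not used as a block in the values given. The replicate block left 0 precursors called and 6 of 6 members higher in old, with member differences unchanged by design and adjusted p of 0.939 to 0.992 in limma. With 4 pairs a sign-flip test cannot go below 0.125, and the ratios gave 0.5 to 1.0.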

Other observations

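The 6 members together held 0.821% to 1.68% of all linear abundance in old and 0.691% to 1.40% in young libraries. Most of it was mir-27b. The sum takes both mir-24 copies, under which the same reads may be listed. After rescaling to a common median precursor, mir-27b was highest in young 2 (16.58) and old 4 (16.57) and lowest in young 4 (15.49), although young 4 was near the other young libraries as deposited. mir-24-1, rescaled in the same way, was at 14.05, 13.62, 13.91 and 14.23 in old 1 to old 4 and at 13.77, 13.49, 13.50 and 13.93 in young 1 to young 4. The rescaled difference of old minus young was 0.28 for mir-24-1, 0.29 for mir-27a and 0.048 for mir-27b, and none passed limma's threshold.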
